A study of Homo sapiens with 6 samples.

Results

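The transcriptome of control RWPE-1 cells was described from 3 of the 6 arrays of the series, those of the RWPE1-CTRL group. RWPE-1 is an established line of non-tumorigenic human prostate epithelium, immortalised with a papillomavirus. RWPE1-CTRL cells had been infected with a lentivirus carrying a scrambled insert and GFP in the CD511B-1 vector and sorted for GFP, so that each array measured a mixed population and not a single clone. The cells were grown in keratinocyte serum-free medium with bovine pituitary extract and EGF. Both groups of the series carried a lentivirus, and no array of uninfected cells was analysed here. Each of the 3 arrays held RNA of 1 biological replicate, and no comparison with the other group was made.

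Each array gave a log2 RMA level for 53617 transcript clusters, where 1 unit is a difference of 2-fold in signal. Of these, 16098 clusters carried 1 gene symbol and 37519 carried none in the annotation used here. Taking the brightest cluster of each symbol by its mean over the 3 arrays left 14884 genes. A percentile is the share of the other genes with a lower level. The signal of a cluster also depends on the sequence of its probes, so that the order of genes is an order of signal and not of RNA amount.

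The prostate epithelium has a basal layer, which rests on the basement membrane and contains keratins 5 and 14, and a luminal layer, which contains keratins 8 and 18 and secretes kallikreins. Prostate epithelial lines grown in serum-free medium with EGF divide rapidly and are known for basal features. Abundant mRNAs of dividing cells commonly encode ribosomal proteins, elongation factors and parts of the cytoskeleton.

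The median gene had a mean level of 5.03 over the 3 arrays. The middle of the distribution was broad, with a lower quartile of 3.64 and an upper quartile of 6.61, and the highest gene reached 12.93. A gene at the 99th percentile had 24.9 times the signal of the median gene on the linear scale. The 25 brightest genes together made up 7.41 ± 0.11% (SD, n = 3) of the summed linear signal of all genes, and the brightest 1488 made up 53.0 ± 0.40% (SD, n = 3).

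A background bound was set from genes whose use is restricted to other tissues, such as liver, pancreas, testis and pituitary. Of 60 such genes 29 were measured, with a median level of 3.42, and the 95th percentile of their mean levels, 5.05, served as the bound. TTR, which encodes a blood carrier of thyroid hormone, was at 4.40, 4.38 and 4.32 in replicates 1, 2 and 3, and SI, the sucrase of the gut, at 2.51, 2.76 and 2.67, both under it. The testis gene PRM2 (mean level 5.41) and ODF2 (mean level 7.06), which encodes a protein of sperm tails that is also found in centrosomes, lay over it. In all 7386 of 14884 genes had a mean level above the bound, or 49.6%. On single arrays the share was 49.8%, 50.2% and 49.1%, and 6879 genes were above the bound on all 3 arrays, 6969 on none and 1036 on 1 or 2. The call therefore rested on the choice of arrays for 6.96% of genes. With ODF2 left out of the list the share was 59.0%, and with the 99th percentile as the bound it was 25.1%, so that it is a statement relative to this bound and not a count of transcribed genes.

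**Figure D1:**
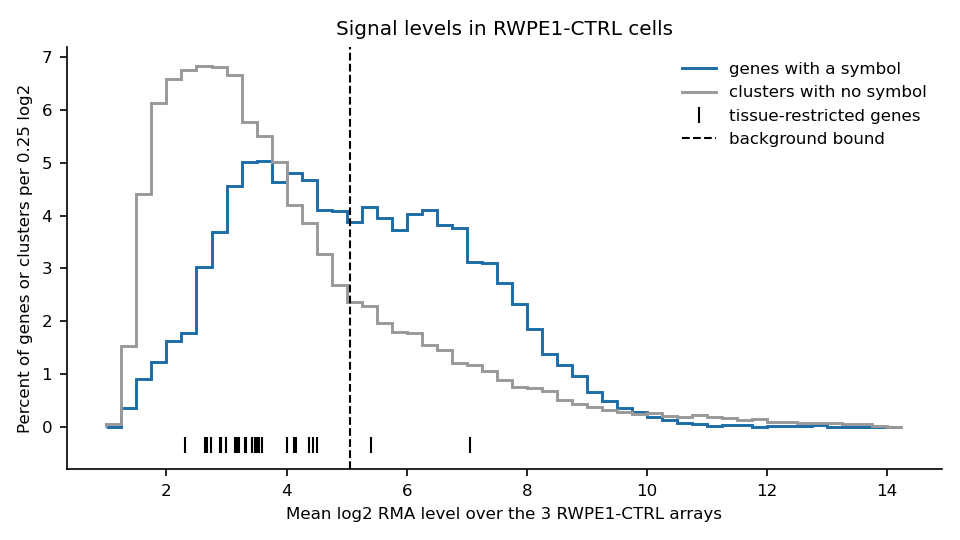
The x axis gives the mean log2 RMA level over the 3 RWPE1-CTRL arrays and the y axis the percent of the 14884 genes (blue) or the 37519 clusters with no symbol (grey) in each step of the level. Black ticks mark the 29 tissue-restricted genes and the dashed line the bound at 5.05, above which lay 49.6% of genes and 23.3% of clusters with no symbol.

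At the very top of the order were parts of the translation machinery. RPS28, a protein of the small ribosomal subunit, was at 12.94, 12.99 and 12.85 in replicates 1, 2 and 3. RPL12, a protein of the large subunit, was at 12.86, 13.06 and 12.62, and EEF2, the elongation factor that moves the ribosome along the mRNA, at 12.48, 12.71 and 12.50. The levels of these genes lay within 0.45 of each other between replicates. Of the 25 brightest genes 7 encode cytosolic ribosomal proteins, among them RPS27 (mean level 12.59), RPL41 (12.37) and RPL10 (12.08), and EEF1G, a subunit of another elongation factor, was at 11.61. RMRP, the RNA of the RNase MRP enzyme that processes ribosomal RNA, was second, at 12.92, 12.78 and 12.94.

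The others of the 25 had varied roles. TMSB10, which encodes a thymosin that binds actin monomers, was at 12.22, 11.94 and 12.37, and PFN1, the actin-binding profilin, averaged 11.36. HMGA1, a chromatin protein of proliferating cells, was at 11.56, 11.77 and 11.61. SDC4, which encodes the surface proteoglycan syndecan-4, was at 11.49, 11.43 and 11.38. The metal-binding metallothionein MT1X spread most of the 25, at 11.18, 11.14 and 11.85, with replicate 3 over the others. SCD, a desaturase of fatty acids, was at 11.20, 10.93 and 11.39 (mean 9.21 over all clusters of the symbol), and CALR, a chaperone of the endoplasmic reticulum, at 11.01, 10.73 and 11.25. CSE1L, which exports importin alpha out of the nucleus, and PTBP1, a regulator of splicing, had mean levels of 11.60 and 11.36, and SERINC3 was at 11.06, 11.11 and 10.83. The long non-coding RNAs LINC00987 and NORAD had mean levels of 11.53 and 11.07.

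By RefSeq, 19 of the 25 were protein-coding genes, 2 long non-coding RNAs, 3 transcribed pseudogenes and 1 the RNase MRP RNA. All 25 were at or above percentile 99.7 on every array, their SD over replicates ran between 0.030 and 0.397, and 21 were among the 25 brightest of every array. The 3 pseudogenes, ANXA2P2 (mean level 12.84), HNRNPA1P10 (12.52) and RPL13AP20 (11.75), resemble parent genes in sequence. The cluster named for the parent ANXA2 was at 7.96, 7.35 and 7.81, and that for HNRNPA1, chosen after its values were seen, at 7.41, 7.42 and 7.05. For these 2 pairs the pseudogene cluster was thus brighter than that of the parent, and from which locus the RNA came was not tested.

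**Figure D2:**
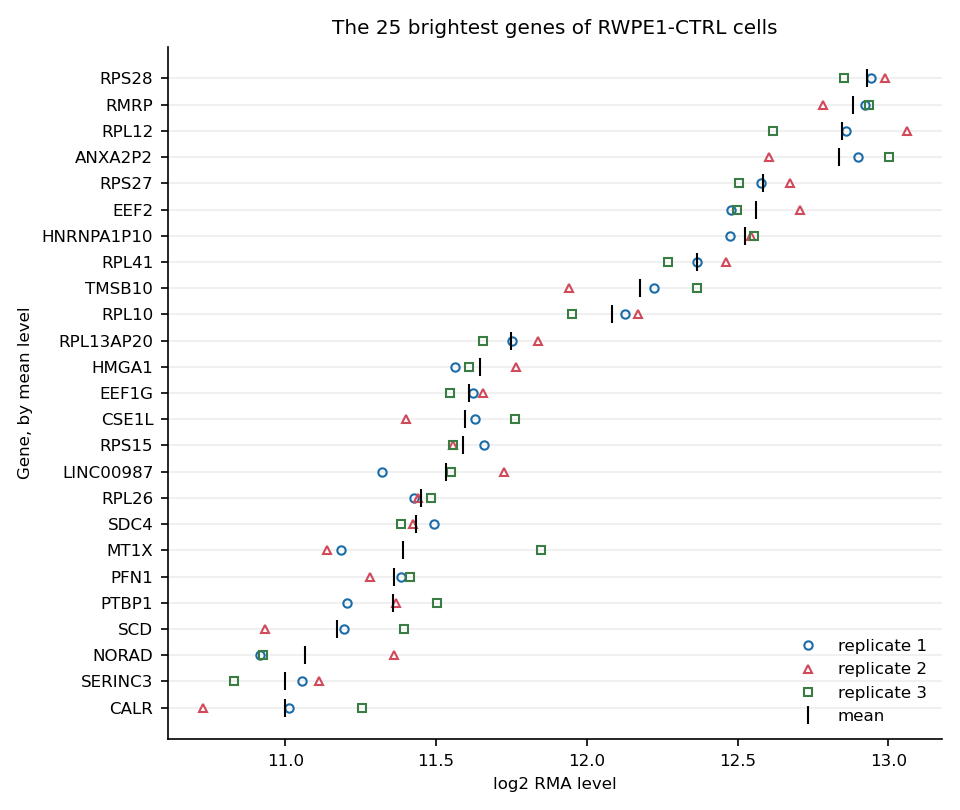
The x axis gives the log2 RMA level and the rows the 25 brightest genes by mean level, with an open symbol for each of the 3 RWPE1-CTRL replicates and a black tick for the mean. RPS28 leads at 12.93, and MT1X is the gene whose replicates lie farthest apart, with an SD of 0.397.

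Promoters of the brightest genes were read from RefSeq on GRCh38.p14, 250 bases before to 50 after the start of the gene, and 21 of the 25 had one. In 4 of them the letters TATAAA, the consensus of the TATA box that binds the TATA-binding protein, stood on the strand of the gene with their first base 40 to 15 bases before the start. The windows around these letters, in capitals, are given because they are the core promoter sequences of a ribosomal protein gene, an elongation factor, a metallothionein and a chaperone at the top of the order:
RPS28, chr19:8321458-8321487, + strand: gctagaacgtccTATAAAggctctccccga
EEF2, chr19:3985476-3985505, - strand: ccggcgtccgccTATAAAaagctgagtgtt
MT1X, chr16:56682428-56682457, + strand: ctcttcccggacTATAAAgagagccgccgg
CALR, chr19:12938567-12938596, + strand: gaggcgggtgggTATAAAagtgcaaggcgg
The first T stood 26 bases before the start in RPS28 and 30 bases before it in EEF2, MT1X and CALR. In 9 of the 21 promoters the letters CCAAT or ATTGG, the CCAAT box on either strand, were found. Among all 10749 genes with a promoter these letters were in 36.0%. TATAAA at the distance given above was in 3.24% of them and in 1.59% of the highest decile by level.

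Over all 10749 genes with a promoter, TATAAA on either strand of the 300 bases was commonest in dim genes. It was found in 25.1% (95% exact binomial interval 21.8 to 28.7) of the promoters of the lowest decile of genes by level, in 8.14% of the fifth decile and in 4.84% (3.72 to 6.17) of the highest decile. The share was 8.49% over all these genes and 11.5% over all 35116 promoters of the RefSeq table. With TATAAA only on the strand of the gene and at the distance given above, the shares were 9.76% in the lowest decile, 1.59% in the highest and 3.24% over all. CCAAT or ATTGG did not follow the level in this way, with 38.6% in the lowest decile and 39.0% in the highest, against 36.0% over all. The median GC content was 44.7% in the lowest decile, 64.3% in the fifth and 66.0% in the highest. Among protein-coding genes alone TATAAA was in 28.2% of promoters of the lowest decile and 4.91% of the highest. The motif is itself rich in A and T, and the parts of the motif and of GC content in this pattern were not tested apart.

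**Figure D3:**
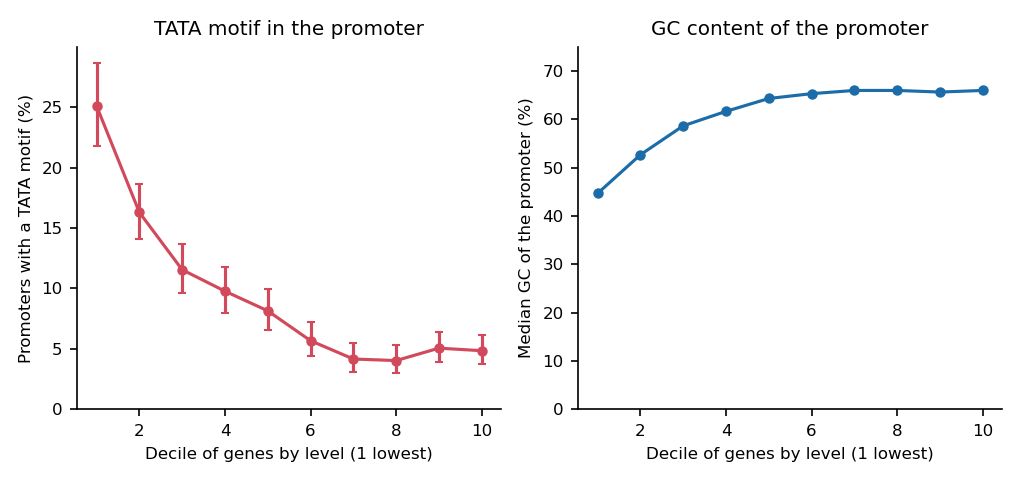
The x axis of both panels gives the decile of genes by mean level in RWPE1-CTRL cells, 1 being the lowest. The left panel shows the percent of promoters with the TATA motif on either strand with 95% exact binomial intervals, from 25.1% in the lowest to 4.84% in the highest decile, and the right panel the median GC percent, from 44.7% to 66.0%.

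Gene lists were set beside all genes, of which 49.6% were above the bound and 1489 in the top decile. Of 52 lists with measured members 30 had a median percentile over 50 and 8 over 90. The highest were chaperones (99.1), the actin and tubulin cytoskeleton (94.8), the desmosome (94.2), ribosomal proteins (94.0) and mitosis (93.6). Only 7 of 20 listed chaperones and 13 of 32 listed cytoskeletal genes were measured, so that these medians describe parts of the lists. All 7 measured chaperones, which fold proteins, were in the top decile (median percentile 99.1), led by CALR and by HSPA9, a mitochondrial member of the HSP70 family, at 10.89, 11.12 and 10.62. Of 53 measured cytosolic ribosomal protein genes 51 were above the bound and 31 in the top decile (median percentile 94.0). The 2 not above it were RPS27L, with a mean of 4.95 ± 0.45 (SD, n = 3), and RPL10L, a testis copy of RPL10, at 2.68, 2.55 and 2.53. Of 49 measured genes of RNA splicing 28 were in the top decile (median percentile 92.0), with the splicing regulator SRSF1 at 10.31, 10.56 and 10.50 and PRPF8, a core protein of the spliceosome, at 9.99, 10.11 and 10.27. The list also holds pseudogenes of its members. Translation factors were lower as a list (median percentile 81.7), with 12 of 30 in the top decile. This list also holds methyltransferases and a kinase of the factors, binding proteins such as EIF4EBP2, and the pseudogene EEF1DP3 (mean level 3.70).

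Measured genes of glycolysis and of the citrate cycle were all above the bound, 9 of 9 in each, out of 18 and 20 listed. GAPDH, the glycolytic dehydrogenase often used as a reference gene, was at 8.64, 8.81 and 8.93, and LDHA, which makes lactate, averaged 7.85 ± 0.39 (SD, n = 3). In the citrate cycle list ACLY, which splits citrate to acetyl-CoA in the cytosol, was at 9.46, 8.82 and 10.16, the highest of the list and with a range over 1. The synthase CS followed at 8.32, 8.48 and 8.32. Of 26 nuclear genes of the respiratory chain 18 were above the bound (median percentile 76.3). COX6A1 and COX8A, subunits of cytochrome c oxidase, averaged 10.85 and 10.84, while COX7B2 and COX8C, copies used mainly in testis, were at 3.25 and 2.75. No gene of the mitochondrial genome, the proteasome list or the zinc transporter list was among the named clusters.

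Genes of cell division were bright as a group. All 25 measured genes of mitosis were above the bound and 15 were in the top decile (median percentile 93.6). TOP2A, the topoisomerase that untangles replicated DNA, was at 10.19, 10.36 and 10.35, and MKI67, the proliferation antigen Ki-67, at 9.43, 9.33 and 9.83. The dimmest, BUB1B of the spindle checkpoint, was still at 6.98, 6.54 and 7.11. All 19 measured genes of DNA replication were above the bound, with the sliding clamp PCNA at 9.14, 8.93 and 9.50 and GINS4 lowest at 5.14, 4.86 and 5.26. All 19 measured genes of the RB and p53 circuit were above it as well. The pocket proteins RBL1 and RB1, which restrain E2F factors, averaged 8.89 and 8.77, the cyclin CCND2 averaged 8.74, and E2F2 was lowest at 5.27, 4.98 and 5.34.

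The labelled cell type was checked against marker lists. Of 11 basal markers 7 were measured and 5 were above the bound (median percentile 86.2). EGFR, the receptor for the EGF in the medium, was at 10.21, 10.24 and 9.82, KRT5 at 9.48, 9.50 and 9.86 and KRT14 at 9.74, 8.82 and 9.84. Both keratins of the basal layer thus lay in the top decile of genes on every array, with replicate 2 lower than the others in KRT14. The hemidesmosome gene DST was at 7.39, 7.43 and 7.41 and NGFR, a surface receptor of basal cells, at 5.26, 5.65 and 5.55. BCL2, at 4.63, 4.18 and 4.70, and KRT15, at 4.83, 4.45 and 4.21, were not above the bound. No named cluster stood for TP63, KRT17, CAV1 or CAV2, which were not analysed here.

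Of 16 luminal markers 7 were measured and 2 were above the bound, both keratins (median percentile 32.9). KRT18 was at 10.50, 10.46 and 10.52, brighter than either basal keratin, while its partner KRT8 was at 5.93, 5.31 and 6.04. The secreted kallikreins KLK2, at 4.48, 4.37 and 4.26, KLK3, which encodes the prostate-specific antigen, at 4.01, 3.98 and 3.81, and KLK4, at 3.65, 3.42 and 3.75, were all under the bound. So were HOXB13, a homeobox factor of the prostate (mean 4.05), and FOLH1, the prostate-specific membrane antigen (mean 3.01). In a bulk sample fewer cells of a type and less RNA per cell cannot be told apart.

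Of 11 markers of epithelium of any kind 9 were measured, CDH1 and ELF3 not among them, and 7 were above the bound. They included the adhesion protein EPCAM at 8.29, 8.72 and 8.50, the claudin CLDN7 at 8.62, 8.82 and 8.41, the epithelial splicing factors ESRP1 (mean 8.59) and ESRP2 (7.80), and GRHL2 (7.36), KRT7 (7.31) and KRT19 (6.61). OVOL2 averaged 4.88 and CLDN4 averaged 3.66. Of 16 squamous markers 12 were measured, KRT6A, KRT6B, LOR and TGM1 not among them. The measured ones were dimmer, with 3 of 12 above the bound. These were KRT16 at 5.88, 6.32 and 5.56 and the cornified envelope genes CNFN and SPRR1A at 5.42 and 5.18 on average. IVL and KRT1 averaged 3.72 and 3.21.

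Measured markers of other cell types were mostly under the bound. Measured were all 6 listed urothelial markers, 3 of 7 smooth muscle, 7 of 9 endothelial and 5 of 13 blood and immune markers. Of the other lists 7 of 9 neuroendocrine, 5 of 8 neuronal and glial and 6 of 10 fibroblast markers were measured. ACTA2, MYH11, PTPRC and PDGFRA were among those not measured, so that these counts describe parts of the lists. None of the measured urothelial, smooth muscle, endothelial and blood and immune markers was above the bound. Their highest were PPARG (mean 4.79), DES (4.48), CLDN5 (4.63, 4.76 and 4.11 in replicates 1, 2 and 3) and LCP1 (4.80). Of 7 neuroendocrine markers only INSM1 was above it, at 4.97, 5.29 and 5.34, and CHGA and SYP, the usual markers, averaged 4.14 and 4.09. Of 5 markers of neurons and glia only MBP was above it (5.21), with GFAP at 4.86 and SYT1 at 4.78. Of 6 fibroblast markers FBLN1, at 5.93, 5.67 and 5.71, and THY1, at 5.02, 5.17 and 4.98, were above it, while the matrix genes DCN and LUM averaged 2.81 and 2.20. Some calls were close. THY1 in replicates 1 and 3, INSM1 in replicate 1 and MBP in replicate 3 were under the bound, whereas LCP1 and GFAP were over it in replicate 3, at 5.31 and 5.21, and SYT1 in replicate 1, at 5.17. With ODF2 left out of the tissue-restricted list the bound was 4.48, and PPARG, UPK2, CLDN5, ERG, LCP1, GFAP and SYT1 were then above it, as were BCL2, KRT15, OVOL2 and KRT10.

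**Figure D4:**
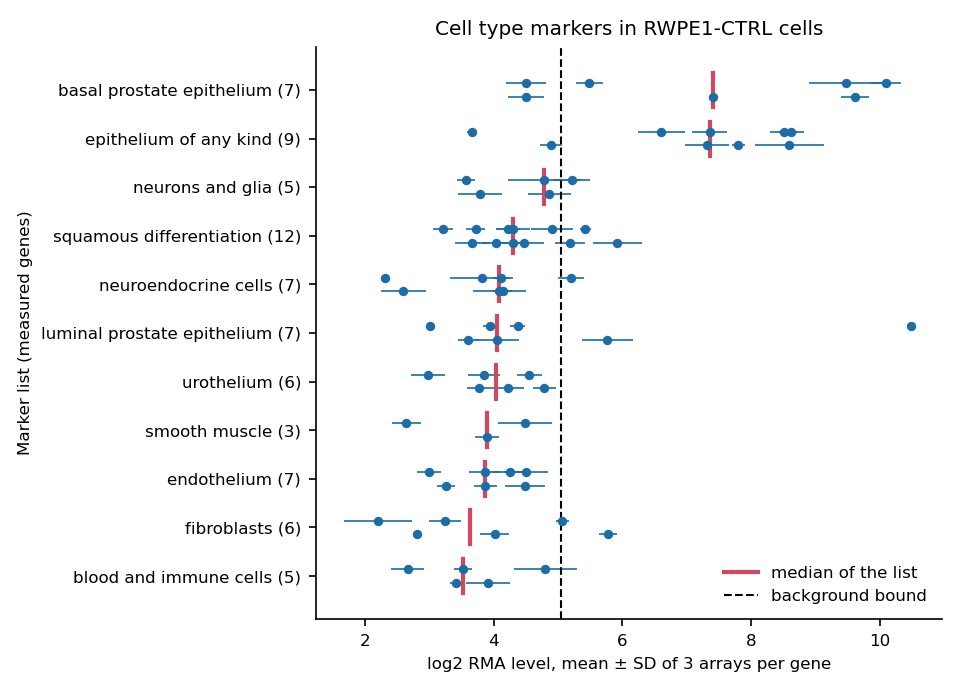
The x axis gives the log2 RMA level and each point a marker gene of RWPE1-CTRL cells as mean ± SD of 3 arrays, with the lists as rows and the number of measured genes in brackets. Red bars mark the median of each list and the dashed line the bound at 5.05, which 5 of 7 basal, 7 of 9 epithelial and 2 of 7 luminal markers exceed.

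Desmosome and cytoskeletal genes were bright, and family members differed widely. Of 14 measured desmosome genes 11 were above the bound and 8 in the top decile. The plaque protein DSP was at 10.27, 10.40 and 10.33, JUP at 9.39, 9.43 and 9.47 and the cadherin DSG2 at 9.36, 9.54 and 9.32, whereas the cadherins of cornified skin DSG1 (mean 2.20), DSC1 (3.24) and DSG4 (3.33) were under the bound. Of 16 measured genes of adherens and tight junctions 11 were above the bound and 3 in the top decile (median percentile 64.1), with the scaffold TJP1 at 8.75, 9.03 and 8.53 and the claudin CLDN8 at 3.25, 2.61 and 2.93. The 47 keratin genes ran between percentiles 7.27 and 99.7 with 8 above the bound, and 6 of 84 keratin-associated protein genes, which are used in hair, were above it. Of 13 measured cytoskeletal genes 9 were in the top decile. Among them were the membrane linkers MSN, at 10.59, 9.87 and 11.15, and EZR, which averaged 9.91 ± 0.19 (SD, n = 3). CFL1, at 4.86, 4.73 and 4.88, was under the bound.

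In the matrix list 16 of 18 genes were above the bound, led by SDC4, by FN1, which encodes fibronectin, at 10.70, 10.60 and 10.56, and by THBS1, which encodes thrombospondin, at 10.63, 9.86 and 11.05. Mesenchymal regulators were split. The repressor SNAI2 was at 10.75, 9.95 and 10.56 and the intermediate filament VIM at 9.09, 8.93 and 9.14, while ZEB2 (3.94), TWIST1 (4.01) and PRRX1 (3.72) were under the bound. SNAI2 and KRT5 were thus both in the top decile of genes in these cells.

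Of 13 measured genes of the EGF receptor system 8 were above the bound (61.5%, against 49.6% of all genes). Below EGFR came ERRFI1, an inhibitor that the receptor induces, at 10.17, 9.73 and 9.07, the ligand EREG at 8.53, 7.90 and 7.91 and the phosphatase DUSP6 at a mean of 7.62 ± 0.61 (SD, n = 3). The gene for EGF itself, which the medium supplied as protein, was at 3.35, 3.40 and 3.38, and the receptor ERBB4 at 3.11, 3.31 and 3.10. Other receptor tyrosine kinases with high levels were AXL (mean 9.51) and MET (9.08), against KIT (3.21) and RET (3.44). In the Notch and WNT list the ligand JAG1 was highest, at 10.07, 9.45 and 9.40, and the WNT effector LEF1 was at 3.22 on average.

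Among transcription factors of epithelia, MYC was at 9.01, 8.84 and 9.35 and KLF5 at 8.86, 8.93 and 8.22. SOX9 was at 8.02, 7.71 and 8.26 and SOX15 averaged 7.96, while SOX2 (3.22), HOXB13 (4.05) and FOXA1, a pioneer factor of luminal cells (4.10), were the dimmest of the list. Of 8 measured nuclear receptors PPARD (7.03) and ESRRA (6.64) were above the bound and PGR and ESR2 averaged 2.86 and 3.71. Of 27 HOX genes, which encode positional identity, 8 were above the bound (29.6%, against 49.6% of all genes). The 3 highest came from the posterior end of the HOXD cluster, HOXD10 at 8.60, 9.01 and 7.76, HOXD11 at 7.34, 7.34 and 7.19 and HOXD13 at 6.26, 6.51 and 6.72, and the anterior HOXD3 was lowest at 3.44, 3.44 and 2.84.

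Of 16 AP-1 and early response genes 14 were above the bound, with the AP-1 subunit JUNB at 10.06, 9.87 and 9.81 and IER3 at 9.76, 9.82 and 9.45, while FOS was at 5.25, 4.55 and 4.87. Of 28 interferon-induced genes 25 were above the bound and 3 were in the top decile, a share near that of all genes, the membrane proteins IFITM2 (mean 9.18), IFITM3 (9.11) and IFITM1 (8.12). The dimmest of them, MX2, averaged 4.20 ± 0.58 (SD, n = 3). Replicate 2 was the highest array in 19 of the 28, and in 5373 of all 14884 genes. Of 25 cytokines and chemokines 9 were above the bound (36.0%, against 49.6% of all genes). IL18 alone was in the top decile, at 9.39, 9.13 and 9.18, and CXCL8 was at 3.05, 2.48 and 3.08.

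Of 30 antioxidant enzymes 10 were in the top decile. Thioredoxin, TXN, was at 9.81, 10.03 and 10.05 and the peroxiredoxin PRDX1 at 9.42, 9.63 and 10.05, while the glutathione transferase GSTM1 was at 3.27, 3.35 and 3.34. Of 11 metallothioneins 6 were above the bound (54.5%, against 49.6% of all genes), with MT1X and MT2A (mean 9.23) far over MT1M (2.79). All 8 measured inhibitors of proteases were above the bound, among them the cystatin CST3 at 9.13, 9.22 and 9.18 and the leukocyte protease inhibitor SLPI at 8.57, 9.62 and 8.34. Of 38 kallikreins and other proteases 14 were above it (36.8%). The sheddase ADAM9 was at 8.86, 8.51 and 8.76 and the collagenase MMP13 at 2.81, 2.11 and 3.23.

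Non-coding RNAs differed by class. Of 1398 long non-coding RNA genes 14.5% were above the bound (median percentile 24.9), of 1072 miRNA features 16.0% (8.95) and of 11915 protein-coding genes 57.5% (57.5). Of the listed long non-coding RNAs ZFAS1 was at 10.10, 10.48 and 9.80 and MALAT1, an RNA of nuclear speckles, at 10.13, 10.18 and 9.99, with MEG3 lowest (mean 3.63). Some other RNA classes stood higher, with 19 of 23 genes of the RefSeq class ncRNA and 7 of 8 of the class snRNA above the bound. In the class of antisense RNAs 2 of 10 were above it, and in that of vault RNAs 1 of 4. Of the 22 listed small Cajal body RNAs 18 were above it. The small Cajal body RNA SCARNA12 was at 9.98, 9.71 and 9.96. SCARNA12 was also the brightest gene of the RefSeq class ncRNA, so that this class and the list overlap.

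A miRNA feature on this array lies in the hairpin or its precursor, and the labelling does not select mature miRNAs, so that its level is not that of the mature miRNA. The 5 brightest features were followed by sequence, since miRNAs act through the seed, bases 2 to 8 from the 5′ end. MIR205, a miRNA gene known for its use in basal and squamous epithelium, was at 10.83, 11.13 and 10.65, at percentile 99.8. MIR4737 was at 10.91, 11.12 and 10.32, MIR574 at 8.66, 8.91 and 8.42, MIR4481 at 8.24, 8.66 and 8.66 and MIR5047 at 8.55, 9.19 and 7.22. The mature sequences from RefSeq on GRCh38.p14, with the seed in capitals, were:
hsa-miR-205-5p, chr1:209432166-209432187, + strand: uCCUUCAUuccaccggagucug
hsa-miR-205-3p, chr1:209432203-209432223, + strand: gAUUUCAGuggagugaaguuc
hsa-miR-4737, chr17:60043077-60043096, - strand: aUGCGAGGaugcugacagug
hsa-miR-574-5p, chr4:38868056-38868078, + strand: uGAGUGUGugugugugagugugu
hsa-miR-574-3p, chr4:38868092-38868113, + strand: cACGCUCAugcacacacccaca
hsa-miR-4481, chr10:12653181-12653197, - strand: gGAGUGGGcuggugguu
hsa-miR-5047, chr17:64501230-64501250, - strand: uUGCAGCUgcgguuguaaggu
No seed was shared between these arms. Apart from MIR205, whose hairpin lies in MIR205HG, the features lie within genes, MIR4737 in HEATR6, MIR574 in FAM114A1 and TLR6, MIR4481 in CAMK1D and MIR5047 in DDX5. The clusters of HEATR6, TLR6, CAMK1D and DDX5 had mean levels of 7.86, 4.48, 5.42 and 10.46, and FAM114A1 was not measured. These genes are named by position, and their strand was not compared with that of the features. How far RNA of these genes contributes to the features was not tested. The features of the miRNAs that the study overexpresses, named here for that reason and outside the rule, were dim in these control cells. MIR183 was at 3.03, 2.27 and 2.31, MIR96 at 2.46, 2.67 and 1.92 and MIR182 at 2.67, 2.90 and 3.24, all under the bound on every array.

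The 3 replicates correlated at 0.984 (replicates 1 and 2), 0.985 (1 and 3) and 0.977 (2 and 3, Pearson) across genes, which are not independent replicates. Across the genes above the bound the correlations were lower, at 0.961, 0.966 and 0.935 in the same order. The median SD of a gene was 0.188, over all genes and over those above the bound, and by decile of level it ran between 0.167 and 0.206. The median SD thus hardly followed the level. The share of genes with a range over 1 was 2.22% in the lowest decile, 4.70% in the sixth and 4.63% in the highest. Of the 7386 genes above the bound 266, or 3.6%, had a range over 1 among the 3 arrays, and 11 had a range over 2. In 200 of the 266 replicate 1 lay between the other arrays, as it did in 3313 of the 7386 genes above the bound. Replicates 2 and 3 differed by over 1 in 222 genes, 99 of them higher in replicate 3 and the others in replicate 2, against 67 genes between replicates 1 and 2 and 62 between replicates 1 and 3. With 1 array left out, the count of genes with a range over 1 was 224 without replicate 1, 62 without replicate 2 and 68 without replicate 3. Such a range is the difference of the remaining pair, so these counts restate those of the pairs.

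The widest range was that of TXNIP, an inhibitor of thioredoxin and glucose uptake. It was at 9.88, 10.22 and 6.88, a range of 3.34, or 10.2-fold. Its relative ARRDC4 was at 8.80, 8.59 and 6.90. GDF15, a stress-induced cytokine, was at 7.76, 9.29 and 6.27, DDIT3, a transcription factor of the stress response, at 6.13, 6.33 and 3.97, and STC2, a secreted glycoprotein, at 8.38, 8.56 and 6.54. In these 5 genes replicate 3 was the lowest array by over 1.

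Others ran in the opposite order. HMGCS1, an enzyme of the mevalonate pathway to sterols, was at 6.79, 5.76 and 8.58, FASN, the fatty acid synthase, at 9.01, 7.57 and 9.62, FGFBP1, a carrier of fibroblast growth factors, at 6.91, 5.46 and 8.29, and DKK1, a secreted WNT inhibitor, at 8.51, 7.22 and 9.14. In these 4 genes replicate 2 was lowest and replicate 3 highest. EGR1, an early response factor, was at 9.07, 6.94 and 8.48, low in replicate 2 alone. LURAP1L was at 5.75, 7.48 and 4.45, the netrin receptor UNC5B at 7.30, 8.58 and 5.68 and the clock-controlled factor DBP at 7.38, 8.61 and 6.64, all highest in replicate 2. The miRNA features MIR4521, at 6.44, 4.41 and 6.94, and MIR5047 completed the 15. Over all clusters of the symbol MIR4521 averaged 4.21, under the bound, and EGR1 averaged 6.66.

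**Figure D5:**
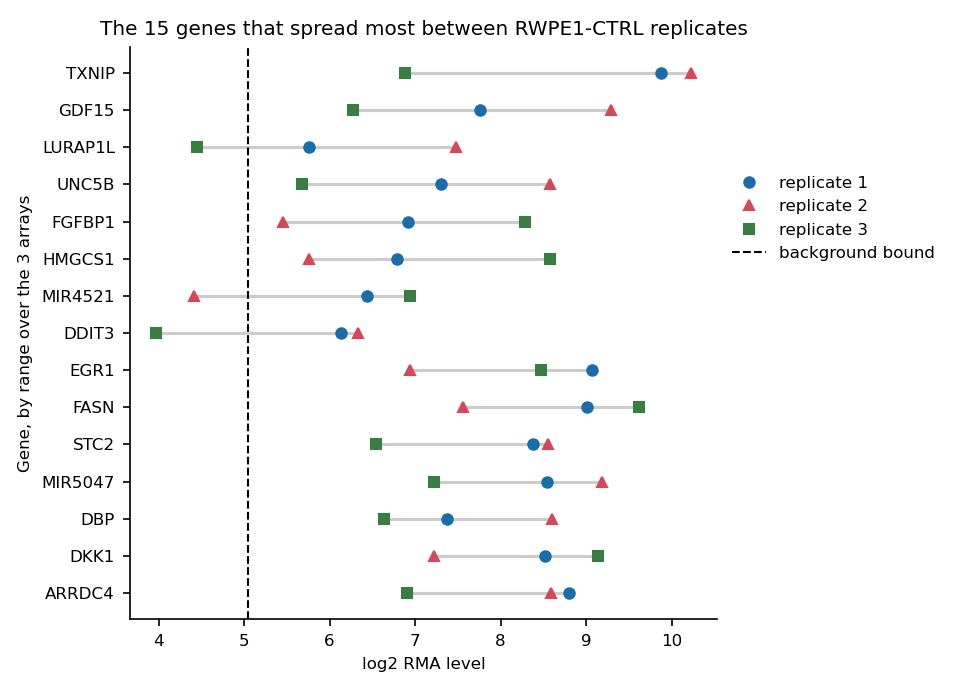
The x axis gives the log2 RMA level and the rows the 15 genes above the bound with the largest range over the 3 RWPE1-CTRL arrays, with a point for each replicate and a grey line for the range. Replicate 1 lies between the other arrays in most rows, and TXNIP has the widest range, 3.34.

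Lists showed the same arrays apart. Of 17 measured genes of cholesterol synthesis and uptake 9 had a range over 1, against 3.31% of all genes, and 12 were lowest in replicate 2 and 12 highest in replicate 3. Over all 14884 genes 5207 were lowest in replicate 2 and 4986 highest in replicate 3. Their mean level was 6.89, 6.51 and 7.44 in replicates 1, 2 and 3, with MSMO1, an oxygenase of sterol synthesis, at 8.45, 8.37 and 9.57 and the epoxidase SQLE at 8.48, 8.01 and 9.60. All 19 DNA replication genes were lowest in replicate 2, with a mean level of 7.85, 7.16 and 7.93, and so were 22 of 25 mitosis genes (8.39, 8.07 and 8.52). No ribosomal protein gene of 53 had a range over 1, although 28 were lowest in replicate 2, and their mean level was 8.42, 8.30 and 8.37. The heat shock protein gene HSPA1A was at 8.80, 9.36 and 10.58, highest in replicate 3.

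After these values were seen, targets of the amino acid response were listed, in which the factor ATF4 drives genes of amino acid synthesis. Of 17 measured 11 had a range over 1, and 16 were lowest in replicate 3, against 5227 of all 14884 genes, with a mean level of 7.73, 7.90 and 6.65. The asparagine synthetase ASNS was at 8.22, 8.20 and 6.42, the serine synthesis gene PSAT1 at 10.86, 10.93 and 9.42 and the pseudokinase TRIB3 at 8.92, 9.21 and 7.45, while ATF4 itself was at 8.40, 8.70 and 8.29. As these genes were chosen for their spread, the counts describe these arrays only.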

How the data were processed

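RNA of 3 RWPE1-CTRL replicates had been labelled and hybridised to Affymetrix gene arrays. The values that the authors deposited are on the log2 scale and come from RMA, a method that subtracts background, brings the arrays to a common distribution and sums up the probes of each cluster. For this step oligo in R is given in the paper, and Partek with RMA in the submitters' processing notes. The array is named as Human Gene 1.0 ST in the methods and as HT 1.0 in a legend, and the clusters used here are those of the Human Gene 2.0 ST annotation. The values were not normalised again. The deposited values of the other 3 arrays were not used here. Arrays give no read depth, and their number limits the precision.

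Symbols came from the platform annotation, and all 14884 had their Entrez identifier in the RefSeq gene table of GRCh38.p14. No group was compared with another, so that no test was run and spread is given as SD or range over 3 arrays. The bound was to come from at least 30 olfactory receptor genes, of which 1 was measured, and the tissue-restricted list took their place. Genes to name were taken from the 25 brightest genes, the 15 with the largest range above the bound, all cell type markers, of each other list the 5 brightest, the 3 dimmest and the one nearest the median, the 5 brightest miRNA features and the 5 symbols whose clusters differed most. Not all of these are described. Outside this rule and chosen after their values were seen were HNRNPA1, the genes that span miRNA features, ASNS, PSAT1, TRIB3, ATF4, SCARNA3 and SCARNA8, and the features of the overexpressed miRNAs were chosen for the study's subject. The lists and the rule for genes were chosen with earlier results of these data known, and 2 of the lists were written after the values were seen. Steps were tested on simulated data. Alternatives covered the cluster kept, normalisation, each array left out, the mean or median, the bound and the motif window. Python 3.11.15, pandas 2.3.3, numpy 2.4.6, scipy 1.17.1 and matplotlib 3.10.9 were used.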

Additional observations from a re-analysis of the deposited data

How the results depend on the processing

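The share of genes above the bound, 49.6%, was 48.9% with the mean of all clusters of a symbol, 71.4% with the bound at the median of all clusters, 43.7% with a bound from keratin-associated protein genes, 25.1% with the 99th percentile of the tissue-restricted list and 59.0% without ODF2, and 49.5 to 49.9% with 1 array left out. The last 3 bounds were chosen after seeing the data. The count of genes with a range over 1, 266, was 62 to 224 with 1 array left out (62 without replicate 2, 68 without replicate 3), 133 at the 99th percentile bound, 492 over all named genes and 11 with a range over 2, a limit added after seeing the data. The share of the highest decile with TATAAA, 4.84%, was 1.59% on the strand of the gene near the start, where fewer positions count. Between 21 and 25 of the 25 brightest genes were kept. The number of lists with a median percentile over 50, 30, was 43 with percentiles among all clusters, and 13 lists passed 50 there. A 99th percentile of olfactory receptor genes could not be run with 1 measured. No paired analysis was possible because only 1 group was used and no test was run. With the mean of all clusters of a symbol the levels of HNRNPA1P10, RPL41, HMGA1, EEF1G, LINC00987, SCD, MIR4521 and EGR1 moved by over 1 SD, to 11.08, 9.20, 10.60, 10.87, 7.83, 9.21, 4.21 and 6.66.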

Other observations

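Where a symbol had several clusters, they often disagreed. Of 779 such symbols 385 (49.4%) had clusters over 1 apart, with a median difference of 0.98, and in 229 the brightest was above the bound and the dimmest was not. The largest differences were in COX6A1 (10.85 against 2.93), LINC00987 (11.53 against 4.13), RPL41 (12.37 against 6.26), CDC27 (7.69 against 1.62) and NAMPT (9.89 against 4.24).

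Of the clusters with no symbol in the annotation used here 433 were brighter than CALR, the last of the 25 brightest genes, and 81 were brighter than RPS28. The order of genes is thus an order among named clusters.

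In 32 genes the 3 arrays held the same value to every deposited digit, 20 of them miRNA features, with 5 above the bound. SCARNA8 was at 6.74, SCARNA3 at 5.80 and HOXD4 at 4.59 on all 3 arrays. Over all clusters there were 252 such cases. Their SD of 0 was not counted as a measure of precision, and the cause was not tested.

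Protein-coding genes of chromosome 16 had the highest median percentile of the autosomes, 65.7 (522 genes), and those of chromosome 21 the lowest, 44.7 (147 genes).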
